A study of Mus musculus with 4 samples.

Results

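The class I odorant receptor genes of the mouse were taken by symbol, as the genes from Olfr543 to Olfr692 with no pseudogene suffix. There were 114 of them among 1102 receptor genes without that suffix and 22399 genes in all. The annotation (GENCODE M21 on GRCm38) placed all 114 on chromosome 7 between 102476579 and 105369355, a span of 2893 kb, with 60 on the plus strand and 54 on the minus strand, and called every one protein-coding. The span also holds 9 receptor genes with older numbers, such as Olfr78 and Olfr69, which held 86 assigned neurons and belonged to neither group below, and the 979 receptor genes outside it are called class II here. The data came from droplet single-cell RNA sequencing of the main olfactory epithelium of the nose, which reads the 5′ end of transcripts. The 4 libraries were from wild-type C57BL/6J mice of 3 months, dissociated with papain, and there was no treatment: female 1, female 2, male 1 and male 2. The title of the series concerns neurexins and the targeting of olfactory axons. Nothing in the labels says whether a library pooled animals, so the p-values measure the spread between these 4 libraries.

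Odorant receptors are G protein-coupled receptors, and an olfactory sensory neuron as a rule transcribes a single one from a single allele. Class I receptors resemble the receptors of fish and make up a minority of the mammalian repertoire. In the mouse their genes lie in 1 cluster, their neurons sit mostly in the dorsal zone of the epithelium and project to the dorsal olfactory bulb, and many of the receptors respond to carboxylic acids and other hydrophilic odorants. A developing neuron chooses its receptor while it still expresses Gap43, a growth protein, and later expresses Omp, the olfactory marker protein of mature neurons.

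A barcode was called an assigned neuron when it had at least 1 UMI (unique molecular identifier, 1 captured RNA molecule) of Omp and when its leading receptor had at least 3 UMIs and at least 80% of all its receptor UMIs. The libraries held 100725429 to 111577458 UMIs, and 8869 to 9215 barcodes passed the filters in the males and 8962 and 9339 in the females. Male 2 stood apart from the other libraries in its share of class I neurons, so the comparison of that share between the sexes is also given without it. Of the 1277 class I neurons, 90 (7.05%) also carried at least 20 UMIs of the sustentacular (supporting) cell genes Cyp2g1, Cyp1a2, Sult1c1, Ermn and Sec14l3 and more of these than of Omp, against 4.85% of class II neurons. These 90 had a median depth of 22128.5 UMIs against 7281 in the others, and they were removed in an alternative. The libraries shared 672 barcode sequences. In 163 shared pairs both barcodes were assigned, and 0 of those pairs had the same receptor.

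Class I neurons were few but spread over nearly the whole cluster. Of 19289 assigned neurons, 1277 (6.62%) carried a class I receptor, and 102 of the 114 genes had at least 1 neuron. The mean share over libraries was 6.60%, and 5.78% without male 2. There were 13 genes with 1 to 4 neurons, 73 with 5 to 19 and 16 with 20 or more, and the median gene had 9. The 12 leading genes held 30.1% of class I neurons, and 26 genes held 50%. In class II, 111 of 979 genes (11.3%) had no neuron, against 12 of 114 (10.5%) in class I, and the median gene also had 9 neurons. The upper ends differed: the most frequent class II receptor had 337 neurons and the most frequent class I receptor 46.

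Olfr591 led with 12 and 6 neurons in female 1 and female 2 and 17 and 11 in male 1 and male 2. Olfr598 followed with 13, 9, 5 and 15 in the same order, and Olfr672 with 8, 8, 7 and 15. No library was lowest for all 3 receptors, and their totals were 46, 42 and 38. Olfr571 had 11, 5, 10 and 11 neurons, and Olfr550 had 3, 9, 9 and 13. Olfr653 had 6, 7, 7 and 12 neurons. Female and male counts overlapped for Olfr571 and met at a shared value for Olfr550 and Olfr653. Olfr665 was the least even of the 12 leading genes, with 4, 7, 15 and 4 neurons, which left male 1 with as many as the rest together. Olfr609 had 6, 4, 8 and 10 neurons, Olfr686 had 8, 7, 5 and 7, and Olfr685 had 4, 6, 5 and 12. Olfr686 was the most even of the leading genes, with a variance over mean of 0.235 between libraries. Olfr549 had 3, 7, 5 and 7 neurons, and Olfr586 had 2, 3, 6 and 11. Olfr586 and Olfr609 were the genes of these 12 whose counts in both males lay above those in both females.

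**Figure D1:**
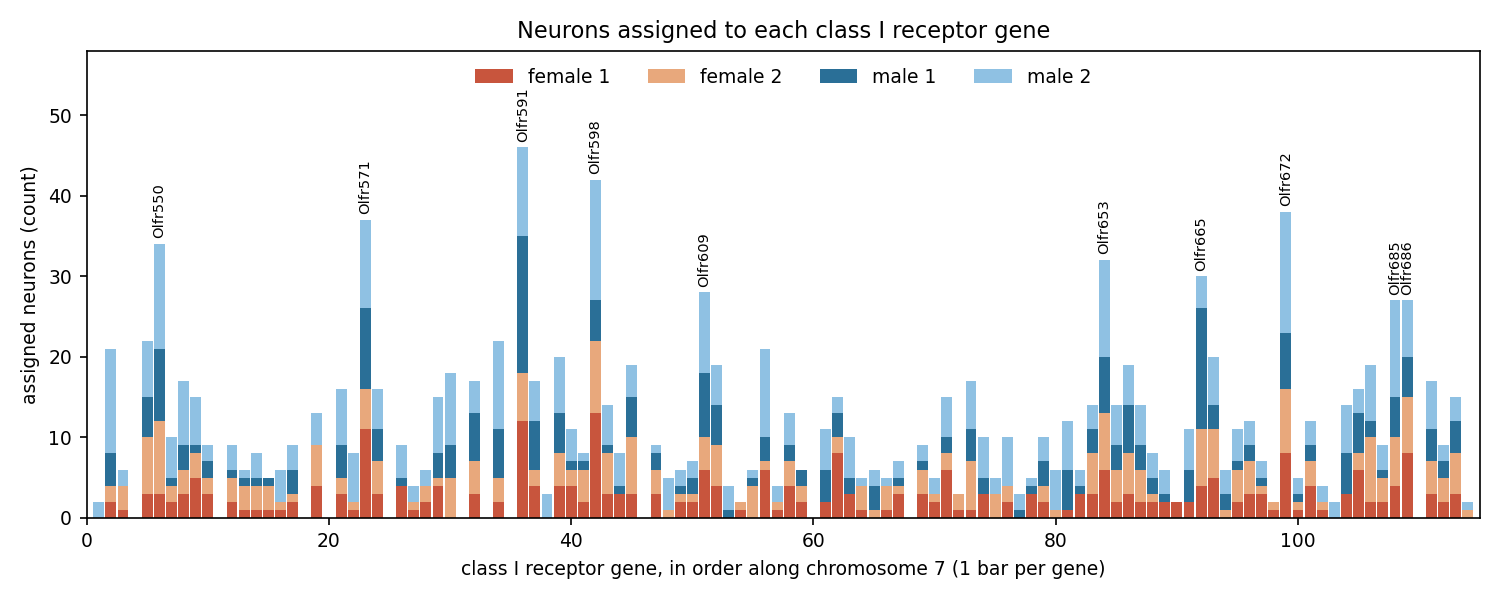
Assigned neurons (count, y axis) for each of the 114 class I receptor genes in their order along chromosome 7 (x axis), stacked by library. The tallest bars, Olfr591 with 46 neurons, Olfr598 with 42 and Olfr672 with 38, lie in different parts of the cluster, and all 4 libraries contribute to each.

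Frequent and rare receptors were mixed along the chromosome. With the genes cut into 6 runs of 19 in chromosomal order, the runs held 192, 234, 233, 152, 229 and 237 neurons. The lowest run was the fourth, from Olfr617 to Olfr642, and each run had 14 to 19 genes with a neuron. Between a gene and the next along the chromosome, Spearman's rho of the neuron numbers was -0.14 over the 114 genes, which share libraries and depth.

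The 12 genes without a neuron were Olfr547, Olfr555, Olfr564, Olfr568, Olfr574, Olfr583, Olfr585, Olfr589, Olfr603, Olfr619, Olfr631 and Olfr688, named after their values were seen. Olfr568, Olfr574 and Olfr631 had 0 UMIs in all 36385 barcodes kept, and the other genes apart from Olfr619 had 1 to 16. Gene models moved with these zeros. A 5′ library reads the start of a transcript, and 8 class I genes have no base annotated before the start codon in GENCODE M21: 7 of these 8 had no neuron, against 5 of the 106 genes with annotated bases there. Class II showed the same split, with 49 of 58 genes without such bases and 61 of 918 genes with them lacking a neuron. No gene without these bases reached 5 neurons in class I. Whether the annotation used for counting had the same models, and its part in these zeros, was not tested, so a count of 0 does not show that a receptor is not chosen. A count of 0 neurons allows up to 3 of the assigned neurons by counting error alone.

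Olfr603 is also a near copy of Olfr596. Their coding sequences of 936 bases differ at 5 positions, an identity of 99.5%, and Olfr596 had 11 neurons whereas Olfr603 had 0 neurons and 1 UMI. Reads that lie between such differences cannot tell the copies apart. Where the reads lie was not examined, and the part of this likeness in the count of Olfr603 was not tested. GENCODE M21 annotates 332 bases before the start codon of Olfr596 and 82 before that of Olfr603. Their coding bases 361 to 480 from the start codon (GENCODE M21), with the differing bases in capitals, show how sparse the differences are:

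Olfr596: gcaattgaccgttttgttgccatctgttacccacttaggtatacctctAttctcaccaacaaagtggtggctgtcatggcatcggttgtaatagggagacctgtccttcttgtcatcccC

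Olfr603: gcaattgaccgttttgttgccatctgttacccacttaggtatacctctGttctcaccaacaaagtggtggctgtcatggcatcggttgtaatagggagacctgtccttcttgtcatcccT

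The pair Olfr611 and Olfr612, neighbours on the minus strand, is 97.5% identical over 969 bases. Olfr611 had 4 neurons and Olfr612 had 2, and every one of the 7 mature barcodes led by Olfr611 also held UMIs of Olfr612. The stretch with the most differing bases (396 to 515, 10 of the 24 differences, in capitals) is shown for contrast with the pair above:

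Olfr611: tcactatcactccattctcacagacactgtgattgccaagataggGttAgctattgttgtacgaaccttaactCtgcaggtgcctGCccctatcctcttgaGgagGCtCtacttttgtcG

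Olfr612: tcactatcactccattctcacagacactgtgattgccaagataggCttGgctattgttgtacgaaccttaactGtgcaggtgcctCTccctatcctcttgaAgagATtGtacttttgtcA

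Across the cluster 21 of the 114 genes had another receptor at 95% coding identity or above and 30 at 90% or above. Their numbers may be uncertain for this reason, which was not tested. For 3 genes the nearest receptor was counted here as class II: Olfr657 (95.5% to Olfr504), Olfr658 (97.1% to Olfr503) and Olfr661 (70.6% to Olfr504). Near copies therefore also lie across the split used here, which was made by symbol and position and not by sequence. Whether these receptors differ in class by sequence was not tested, so the pairs do not show near copies of different classes. The median identity to the nearest receptor was 76.3%, and the range was 58.4% to 99.5%. Genes with a relative at 90% or above had a median of 8.5 neurons and the others 9. Of the 16 genes with at least 20 neurons, Olfr666 (96.9% to Olfr668), Olfr598 (96.8% to Olfr597) and Olfr544 (90.4% to Olfr545) have such a relative. The other 13 lay between 59.7% for Olfr571 and 87.4% for Olfr591.

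Olfr619 differed from the other genes without a neuron. It had 444 UMIs, and 4 Omp-positive barcodes held at least 3 of them, but in none did it reach 80% of the receptor UMIs. All 3 mature barcodes led by Olfr619 held Olfr620, with 224 UMIs in sum, 63.8% of those of Olfr619. The genes are adjacent on opposite strands with 35 bases between them, and their coding identity is 57.0%. Olfr620 itself had 11 assigned neurons. Whether these barcodes transcribe both genes or reads of one run into the other was not tested.

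Numbers of neurons per gene agreed moderately between libraries. Over the 114 genes, Pearson's r between pairs of libraries ranged from 0.549 (female 1 with female 2) to 0.662 (male 1 with male 2), and Spearman's rho ranged from 0.521 to 0.723. Pairs within a sex lay at both ends of the range of r. For the 89 genes with at least 5 neurons, the median ratio of variance to mean over the 4 libraries was 1.05, and for the class II genes with at least 5 neurons it was 0.964. Of the 114 genes, 60 had a neuron in all 4 libraries, 29 in 3, 9 in 2 and 4 in 1.

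The class I share was level in 3 libraries and higher in the fourth. In the females it was 5.83% of 4816 and 5.91% of 4707 assigned neurons, in male 1 it was 5.59% of 4794, and male 2 stood at 9.05% of 4972. The exact (Clopper-Pearson) 95% interval of male 2, 8.27% to 9.88%, lay above those of the other libraries, whose highest bound was 6.62%. These intervals cover counting error only. The males were 1.45 percentage points higher on average, with p = 1 in an exact two-sided permutation test, where 0.333 is the smallest p that 2 libraries against 2 allow. Without male 2 the males were 0.28 percentage points lower (-0.280), and without male 1 they were 3.18 higher. The 1.45 points therefore rest on male 2.

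The surplus of male 2 was spread along the cluster. Its neurons were 1.47 to 1.97 times the mean of the other libraries in the 6 runs of 19 genes, and it was above each other library in all 6. Male 2 alone had the most neurons for 36 of the 89 genes with at least 5 neurons, against 10 for female 1, 15 for female 2 and 6 for male 1. A marker of the dorsal zone moved with it. The share of class II neurons with more UMIs of Nqo1, a dorsal enzyme, than of Ncam2, an adhesion protein of the other zones, was 9.31% and 10.7% in the female libraries, 11.3% for male 1 and 14.2% for male 2. Within neurons with Nqo1 above Ncam2, class I made up 34.0%, 31.5%, 29.5% and 35.9%, and male 2 was 1.13 times the mean of the others. Within the remaining neurons it made up 1.33%, 1.06%, 1.09% and 1.82%, and male 2 was 1.57 times the mean of the others, as it was over both sets together (1.57). The part of the dissected area in the share of male 2 was not tested.

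**Figure D2:**
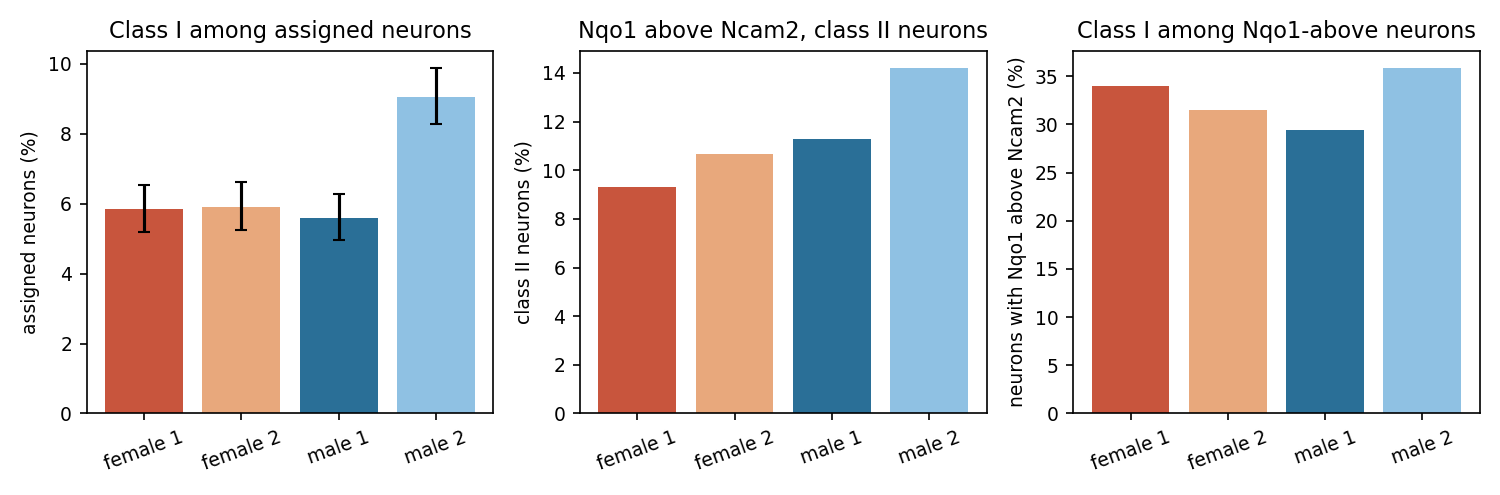
Shares in percent (y axes) in the 4 libraries (x axes): class I among assigned neurons with exact 95% intervals, class II neurons with Nqo1 above Ncam2, and class I among neurons with Nqo1 above Ncam2, the last 2 outside the sustentacular gate. Male 2 is at 9.05%, 14.2% and 35.9% and is the highest in all 3 plots.

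No class I gene was called different between the sexes. All receptors with at least 20 neurons, 284 in all, entered 1 edgeR quasi-likelihood fit, and 0 were called at a Benjamini-Hochberg adjusted p under 0.05 (0% of those tested); 23 had an unadjusted p under 0.05. DESeq2 also called 0, with 2 at an unadjusted p under 0.05. Of the 16 class I genes tested, 2 had an unadjusted p under 0.05. Olfr544, known as a receptor of azelaic acid, had 2 neurons in each female library, 4 in male 1 and 13 in male 2, a log2 ratio of male to female of 1.99 (SE 0.73) with an edgeR adjusted p of 0.551. Olfr586 had a log2 ratio of 1.68 (SE 0.66) and the same adjusted p of 0.551. The median log2 ratio of the 16 genes was 0.57 against -0.04 over all 284, and 13 of the 16 were positive, beside the higher class I share of male 2. Without male 2, with 8 class I genes tested, the median was 0.20.

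Receptor UMIs per neuron differed more between genes than between libraries. UMIs were counted at 1 end of a transcript, so they are compared between genes without scaling by length. Among the 89 genes with at least 5 neurons, the median per neuron ran from 11 UMIs for Olfr551 to 253 for Olfr560, with 61 in the middle. There were 19 genes at 100 UMIs or more and 16 under 30. In 22 genes with at least 3 neurons in every library, the SD between genes of the log2 medians was 0.80 and the median SD between libraries was 0.39. Spearman's rho of these medians between libraries was 0.600 to 0.805. How often a receptor was chosen and how many UMIs its neurons held were nearly unrelated (rho 0.07 over the genes).

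Among the 16 genes with at least 20 neurons, Olfr544 had the highest median, 231 UMIs, with medians of 388, 260.5, 98.5 and 227 in female 1, female 2, male 1 and male 2. Olfr672 had 179, 123.5, 152 and 139. The ranges of Olfr544 and Olfr672 overlapped, with male 1 low for Olfr544. Olfr586 had 200.5, 25, 110 and 156, Olfr598 had 112, 123, 104 and 104, Olfr549 had 179, 81, 75 and 125, and Olfr665 had 135, 99, 110 and 103. Olfr598 was therefore the steadiest of the high genes, while the low value of Olfr586 came from the 3 neurons of female 2. At the other end, Olfr594 had 55, 23, 13 and 25 UMIs and Olfr571 had 27, 24, 30.5 and 29. Olfr591, the most frequent receptor, had 39, 59, 35 and 34, and Olfr686 had 57, 24, 39 and 30. Every library value of Olfr571 and of Olfr591 lay below every library value of Olfr598, Olfr672 and Olfr665. Olfr666 had 74, 42, 8 and 51.5, Olfr609 had 81.5, 35.5, 29.5 and 53, and Olfr685 had 81, 59.5, 57 and 39.5. The low value of Olfr666 in male 1 came from 3 neurons.

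**Figure D3:**
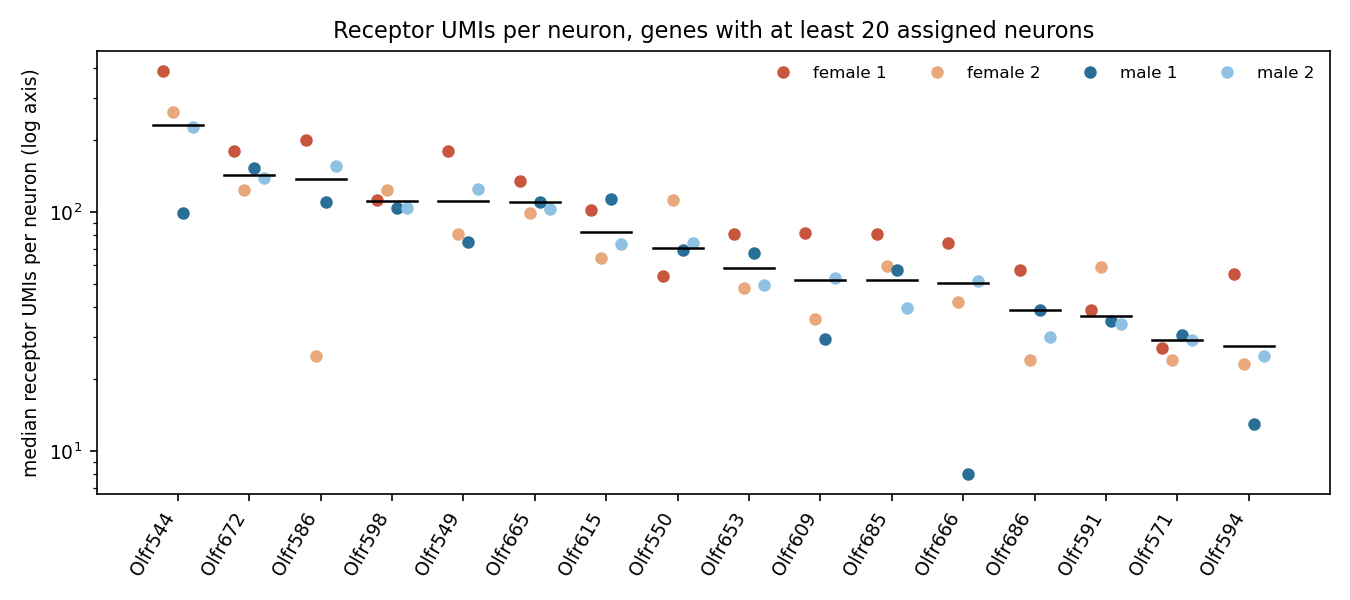
Median receptor UMIs per neuron (log axis) for the 16 class I genes with at least 20 neurons (x axis), with 1 point per library and a bar at the median over all neurons of the gene. Olfr544 is highest at 231 UMIs and Olfr594 lowest at 27.5, and points of 1 library do not sit at 1 end throughout.

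As a class, these receptors held UMIs per neuron near those of class II. The medians over genes were 76.5 against 64 UMIs in female 1, 59.25 against 55 in female 2, 57 against 59.5 in male 1 and 59.5 against 53 in male 2. Class I was higher in 3 libraries and lower in male 1. The mean log2 ratio was 0.12 ± 0.13 (SD, n = 4), with p = 0.25 in an exact two-sided sign-flip permutation test, which can give 0.125 at the least with 4 pairs. It was -0.00 (-0.0048) when a leading receptor needed only 50% of the receptor UMIs. Among receptors with at least 20 neurons it was 0.22 and class I was higher in all 4 libraries, with p = 0.125 in the same exact test. Over the receptors with at least 5 neurons it was 0.07 without female 1, 0.12 without female 2, 0.18 without male 1 and 0.10 without male 2. With so few libraries the test cannot settle whether the classes differ.

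For nearly all class I genes, the neurons in sum held more of the dorsal marker Nqo1 than of Ncam2. Outside the sustentacular gate, Nqo1 exceeded Ncam2 in 984 of 1187 class I neurons, a mean over libraries of 82.8% ± 1.80 (SD, n = 4), and in 1938 of 17057 class II neurons, a mean of 11.4% ± 2.06 (SD, n = 4). The ranges over libraries, 80.1% to 84.1% and 9.31% to 14.2%, did not overlap. By gene, CPM (UMIs of a gene scaled to the same total in every sum) in the summed neurons were higher for Nqo1 than for Ncam2 in 14 of the 16 genes with at least 20 neurons, in 86 of the 89 with at least 5, and in 22 of 267 class II genes with at least 20 (8.24%). Olfr672 had the highest Nqo1, at 4424, 3425, 4654 and 3732 CPM in female 1, female 2, male 1 and male 2, with 0 UMIs of Ncam2. Olfr586 had 3305, 2218, 5041 and 3675 CPM, and Olfr591 had 2507, 4887, 3194 and 2358. Olfr685, Olfr550 and Olfr549 followed at 2834, 2530 and 2456 CPM over all libraries. Of the 16 genes, 5 had 0 UMIs of Ncam2.

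The exceptions were Olfr571, Olfr686 and Olfr556. Olfr571 neurons had 51.4 CPM of Nqo1 against 295 CPM of Ncam2, and Nqo1 was at 0, 438, 11.9 and 0 CPM in the 4 libraries. Olfr686 neurons had 5.60 CPM of Nqo1, from 1 UMI, against 280 CPM of Ncam2. Olfr556, with 9 neurons, had 0 UMIs of Nqo1 and 96.8 CPM of Ncam2. Nfix, a transcription factor gene that goes with the non-dorsal zones, was at 123 CPM in Olfr571 neurons and 247 CPM in Olfr686 neurons, against at most 86.6 CPM in the other 14 genes. Olfr556 had 111 CPM of Nfix. The 3 genes had 59.7%, 62.1% and 60.6% coding identity to their nearest relatives, against the median of 76.3%. Such low identity was not particular to them. Genes with high Nqo1 had it too, such as Olfr685 (61.8%), Olfr550 (62.1%) and Olfr655 (60.5%, with 4282 CPM of Nqo1). Olfr571, Olfr686 and Olfr556 do not adjoin each other in the cluster. Female 2, with the Nqo1 of Olfr571, had 5 neurons of that gene. Among genes with at least 20 neurons, Olfr544 at 586 CPM of Nqo1, Olfr615 at 622, Olfr653 at 1013 and Olfr666 at 1085 lay below the dorsal leaders but above Ncam2. Some genes with fewer neurons had little Nqo1, though more than Ncam2. Examples were Olfr557 (30.4 CPM from 2 UMIs), Olfr577 (52.7 CPM from 2 UMIs), Olfr691 (91.9 CPM) and Olfr578 (130 CPM). Acsm4, another gene of the dorsal zone, was at 654, 527, 576 and 501 CPM in their neurons.

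**Figure D4:**
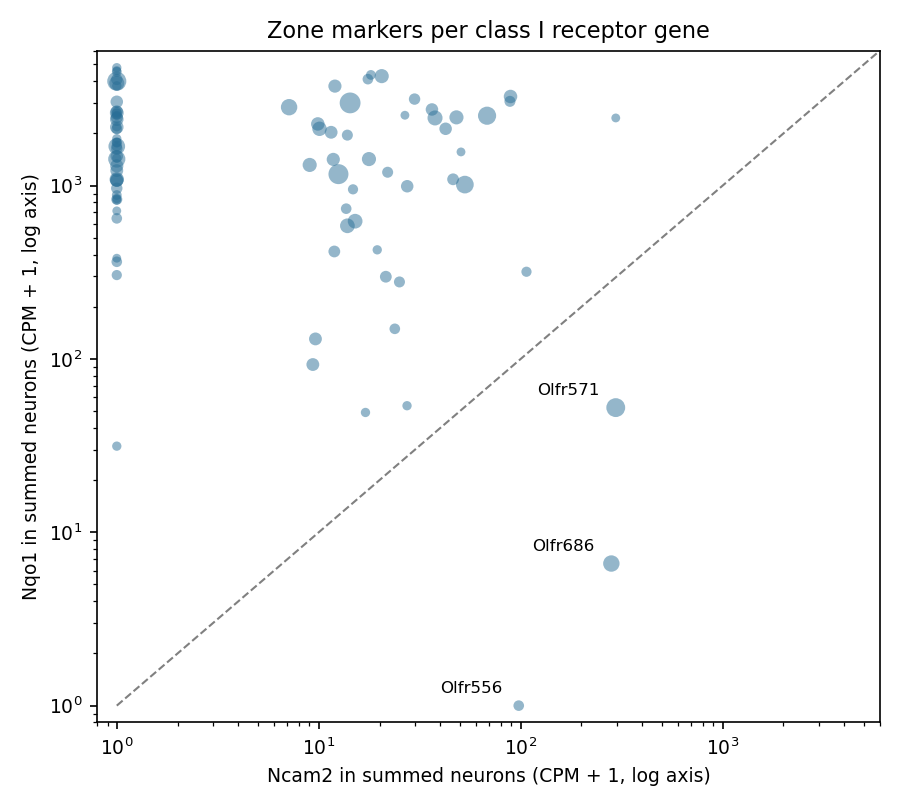
Nqo1 (y axis) against Ncam2 (x axis) in the summed neurons of each class I gene with at least 5 neurons, both as CPM + 1 on log axes, outside the sustentacular gate; larger points have more neurons and the dashed line marks equal levels. Of the 89 genes, 86 lie above the line, and Olfr571, Olfr686 and Olfr556 lie below it.

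Few immature neurons could be given a class I receptor. Immature barcodes had at least 3 UMIs of Gap43 and more Gap43 than Omp, and mature ones at least 3 UMIs of Omp and more Omp than Gap43, both outside the sustentacular gate. There were 2307 immature and 20194 mature barcodes. Of 340, 296, 282 and 300 assigned immature barcodes, 19, 8, 4 and 16 were class I in female 1, female 2, male 1 and male 2. The shares were 5.59%, 2.70%, 1.42% and 5.33%, a mean of 3.76% ± 2.03 (SD, n = 4), and their exact intervals overlapped. By library, the share was lower than that of the Omp-positive neurons each time, although the interval of female 1 (3.40% to 8.59%) covered its Omp-positive share of 5.83%. An immature barcode with at least 1 UMI of Omp counts in both sets.

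The 47 immature class I barcodes were spread over 32 genes. Olfr681 had 3, from 2 in female 1 and 1 in female 2. Olfr597 had 3, from female 1, female 2 and male 2, and Olfr571 had 3, from 2 in female 1 and 1 in male 2. No gene had immature barcodes in all 4 libraries. Olfr543, with 2 immature barcodes, had 176 UMIs in 2 immature barcodes of male 2 and 3 UMIs in the mature gate of all libraries. Olfr645 had 2 in female 1, and Olfr591 had 1 in female 1 and 1 in male 2. In class II, 43.8% of genes had an immature assigned barcode, against 28.1% in class I. Class II genes also had more assigned neurons, a mean of 18.3 per gene against 11.2, and the part of that in this gap was not tested. Presence at the level of 1 UMI says little here. A class I UMI was found in 13.5% of mature, 11.4% of immature and 11.5% of sustentacular barcodes, at mean median depths of 7790, 10414 and 14046.5 UMIs. With each barcode thinned to 2000 UMIs the shares were 8.64%, 4.63% and 3.29%, leaving out 1321, 14 and 246 shallower barcodes. The share with at least 3 UMIs of a class I gene was 6.35%, 2.82% and 2.14%, and 6.09%, 2.11% and 1.10% after thinning. Sustentacular cells should lack these receptors, so the immature share stood less far above that background than the mature share.

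Class I transcripts were more abundant in mature neurons. Their summed level was 580, 462, 464 and 839 CPM in the mature barcodes of female 1, female 2, male 1 and male 2, and 228, 106, 36.3 and 164 CPM in the immature ones. The mature level was higher in all 4 libraries, and the groups did not overlap. Summed counts per gate were compared in 1 edgeR fit over 14189 genes with the library as a block, where 75.6% of genes were called, 38.8% higher and 36.8% lower, in mature neurons at an adjusted p under 0.05. Of the 114 class I genes 67 passed the filter on low counts, mostly through the mature group, so their counts are a description. Of the 67, 46 (68.7%) were called higher and 0 lower (DESeq2 called 59 higher and 0 lower; 47 had an unadjusted p under 0.05 in either direction), against 63.1% higher and 1.12% lower of 624 class II genes. With no filter, 73 of 110 class I genes were called higher and 1 lower, beside 5984 higher and 5078 lower of all 18796 genes. The remaining 47 genes were not tested.

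Many genes had almost no UMIs in immature barcodes, and since they passed the filter through their mature level, the values are given without a test. Olfr652 had 274, 442, 160 and 612 UMIs in the mature gate and 0, 1, 0 and 1 in the immature gate. Olfr607, Olfr586, Olfr610, Olfr685, Olfr691, Olfr655, Olfr552, Olfr601 and Olfr584 had at most 3 immature UMIs in any library, and these 10 genes were higher in mature barcodes in 4 of 4 libraries. Some frequent receptors had more. Olfr591 had 406, 417, 595 and 379 UMIs in mature barcodes and 36, 3, 1 and 69 in immature ones. Olfr571 had 257, 157, 322 and 329 against 64, 1, 4 and 39. For both genes the immature UMIs came mostly from female 1 and male 2. The 6 genes with the most immature UMIs, Olfr689, Olfr672, Olfr681, Olfr543, Olfr598 and Olfr597, held 38.4% of the 3392 class I UMIs in immature barcodes.

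When a class I neuron held a second receptor, that receptor was class I more often than in other neurons. In mature barcodes led by a class I gene with at least 3 UMIs, 778 of 3684 UMIs of other receptors (21.1%) were class I, against 5.10% in mature barcodes led by a class II gene. In immature barcodes the shares were 190 of 353 (53.8%) and 5.02%. By library, the share in mature class I-led barcodes was 26.7% and 23.5% for the female libraries and 21.9% and 15.2% for the male ones, and in class II-led ones it was 3.85% to 6.41%. These ranges did not overlap. The immature class I-led share was 72.8%, 16.7%, 28.6% and 14.9%, so its pooled value came from female 1. The immature value rests on 56 barcodes, and 122 of its 190 UMIs came from 1 barcode with Olfr672 and Olfr623. Of 168 mature detections of a second class I gene, 46 (27.4%) were the next gene along the chromosome, whereas 1.69% of all ordered pairs of class I genes are such neighbours. Genes at 85% coding identity or above made up 20 detections (11.9%), against 0.326% of ordered pairs. Neighbours held 336 of the 778 UMIs (43.2%), of which 224 came from the 3 barcodes of Olfr619 with Olfr620; without these the share was 112 of 554 (20.2%). A single barcode of Olfr586 with Olfr607 gave 164 of the 778 UMIs. Besides Olfr619 with Olfr620, Olfr615 was found in 6 of 8 mature barcodes led by Olfr616 and had 16.5% as many UMIs as Olfr616. These 2 genes lie on opposite strands, their models overlap by 52 bases, and their coding identity is 62.1%. The part of overlapping models or of near-identical sequence in these pairs was not tested.

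Class I neurons differed from class II neurons in many other genes. In an edgeR fit of summed counts per library and class over 12929 genes other than receptors, with the library as a block, 26.2% were called at an adjusted p under 0.05, 13.5% higher and 12.7% lower in class I. Of 65 listed genes of zone, receptor choice, transduction, axon targeting and maturation, 12 were higher and 34 lower, with a median log2 ratio of -0.15 against 0.00 over all genes tested. As class I neurons are mostly dorsal, the comparison was repeated within neurons with Nqo1 above Ncam2 and outside the sustentacular gate. There 23 of the 62 listed genes other than Nqo1 and Ncam2, which chose the neurons, were called, and 340 of 10133 genes were higher and 315 lower in class I. Sustentacular markers were higher in the class I sums: 3866 to 7273 CPM against 2357 to 3356 CPM, and 242 to 327 against 235 to 276 CPM outside the sustentacular gate. Their part in the differences was tested only by leaving those barcodes out. With the barcodes of the sustentacular gate left out, 1289 of 12431 genes were called higher and 1444 lower in class I. Markers of basal, immune and glial cells summed to at most 74.7 CPM in either class, with Trp63, Ptprc, C1qa, Neurog1 or Sox10 at 0 in some class I sums. Respiratory markers (Foxj1 and Scgb1c1) were higher, at 505 to 1282 CPM in class I and 769 to 1033 CPM in class II. Outside the sustentacular gate they were still at 464 to 593 and 430 to 639 CPM, so the ranges of the classes overlapped. The part of this material in the differences was not tested.

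The zone list split in both directions, with 3 genes higher and 4 lower of 7. Nqo1 was at 1621, 1379, 1775 and 1501 CPM in class I neurons of female 1, female 2, male 1 and male 2 and at 148, 143, 122 and 196 CPM in class II neurons, a log2 ratio of 3.40 (SE 0.10, adjusted p 9.00e-12). Acsm4, an acyl-CoA synthetase gene of the dorsal zone, had 516 ± 44.2 against 56.1 ± 8.19 CPM (SD, n = 4; log2 ratio 3.23). Nfix fell from 224 ± 15.9 CPM in class II to 25.3 ± 4.22 CPM in class I (log2 ratio -3.14), and Ncam2 from 184 ± 5.95 to 31.7 ± 4.45 CPM (log2 ratio -2.53). Within Nqo1-bearing neurons Nfix kept a log2 ratio of -2.56 (edgeR adjusted p 5.41e-11). The ratio of Acsm4 was smaller there, 0.44, but edgeR still called it (adjusted p 4.28e-06). The restriction therefore did not make this dorsal gene equal in the 2 classes. Nqo1 and Ncam2 chose those neurons, so their own ratios there are no result. Cd36, a scavenger receptor gene, had a log2 ratio of 1.13 over all neurons and 1.57 within Nqo1-bearing ones.

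Among 16 genes of receptor choice and chromatin, 1 was higher and 6 were lower over all neurons. Without the sustentacular gate 2 were higher and 2 lower, and within Nqo1-bearing neurons edgeR called 1, which was lower. Bcl11b, a zinc finger factor known to bear on the choice between the classes, was at 21.6, 7.15, 15.6 and 10.7 CPM in class I neurons and 56.2, 51.8, 51.7 and 51.2 CPM in class II neurons. All class I values lay below all class II values, and the log2 ratio was -1.94 (SE 0.15, adjusted p 2.46e-07). It was -1.93 (SE 0.18) within Nqo1-bearing neurons. Ldb1, the partner of Lhx2 at receptor enhancers, had a log2 ratio of -0.35, and Ebf3 and Ebf2, which bind receptor promoters, had -0.16 and -0.12. edgeR called none of these 3 within Nqo1-bearing neurons, at adjusted p-values of 0.137, 0.480 and 0.890, and Ebf3 and Ebf2 were not called without the sustentacular gate either (0.0874 and 0.238).

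Of 17 transport and transduction genes, 11 were lower and 2 higher over all neurons, 8 were lower and 1 higher without the sustentacular gate, and 5 were lower and 1 higher within Nqo1-bearing neurons. The summed markers of mature neurons (Omp, Gnal, Adcy3, Cnga2, Stoml3 and Gng13), which share genes with this list, were also lower in class I, at 19682 to 21627 CPM against 24722 to 26044 CPM, and at 23523 to 24854 against 27208 to 28614 CPM outside the sustentacular gate. Not all of these genes were lower singly. Outside that gate edgeR called Stoml3 and Cnga2 lower (log2 ratios -0.48 and -0.30). It did not call Omp, Gnal, Adcy3 or Gng13 there (adjusted p 0.946, 0.999, 0.568 and 0.181). Stoml3, a mechanosensitivity and cilia protein gene, was at 5865 ± 371 CPM in class I and 8822 ± 309 CPM in class II (SD, n = 4; log2 ratio -0.57, SE 0.03), and at -0.40 within Nqo1-bearing neurons. Cngb1, a subunit of the cyclic nucleotide-gated channel, had a log2 ratio of -0.38 and -0.26 in the same order, and Pde1c, a phosphodiesterase gene, had -0.37 and -0.08. The value for Pde1c was not called within Nqo1-bearing neurons (adjusted p 0.232). Gnas, a G protein subunit gene of other cell types as well, was called higher in class I at 0.61. Its ratio was 0.12 (adjusted p 0.512) without the sustentacular gate and -0.07 (adjusted p 0.906) within Nqo1-bearing neurons. The receptor transporters Rtp1 and Rtp2 had log2 ratios of -0.06 and 0.01 and were not called.

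Of 19 axon targeting genes, 6 were higher and 10 lower over all neurons, 7 were higher and 8 lower without the sustentacular gate, and 5 were higher and 7 lower of 18 within Nqo1-bearing neurons. Robo2, a receptor for Slit guidance proteins, was at 198, 187, 218 and 178 CPM in class I and 86.4, 80.3, 90.2 and 82.6 CPM in class II neurons (log2 ratio 1.22, SE 0.05, adjusted p 1.21e-10). Nrp2, a semaphorin receptor gene of ventral axons, fell from 143 ± 12.6 to 29.4 ± 9.99 CPM (SD, n = 4; log2 ratio -2.28). Nrp1, its relative in the ordering of axons from front to back, fell from 49.8 ± 2.69 to 17.5 ± 1.18 CPM (log2 ratio -1.49), and Mslnl, a mesothelin-like gene, from 573 ± 34.8 to 285 ± 40.3 CPM (log2 ratio -0.98). Within Nqo1-bearing neurons the ratios were 0.55 for Robo2, -1.38 for Nrp2, -1.45 for Nrp1 and -1.01 for Mslnl, and edgeR called each. Nrxn2, a gene of a presynaptic adhesion protein, was lower in class I (12.6 ± 2.36 against 22.1 ± 1.06 CPM, SD, n = 4; log2 ratio -0.81, adjusted p 0.000233). Within Nqo1-bearing neurons its ratio was -0.26 (SE 0.21, adjusted p 0.579). Nrxn3 was not called (adjusted p 0.110), with under 1 CPM in every sum.

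Of 6 genes of maturation, 3 were called lower in class I and the other 3 were not called. Gap43 was at 203, 110, 83.4 and 214 CPM in class I and 269, 275, 275 and 282 CPM in class II neurons (log2 ratio -0.83, SE 0.15, adjusted p 0.000956). Every class I value was below every class II value, with female 1 and male 2 nearest. Dpysl3 and Stmn1, which act on the cytoskeleton of growing axons, had log2 ratios of -0.53 and -0.54. None of these 3 was called within Nqo1-bearing neurons (adjusted p 0.306, 0.727 and 0.269 for Gap43, Dpysl3 and Stmn1), where their ratios were -0.38, -0.08 and -0.23. Tubb3 was the one gene of this list called there, and it was higher in class I (log2 ratio 0.17, adjusted p 0.00646). Without the sustentacular gate Tubb3 was also called higher (log2 ratio 0.17, adjusted p 0.00510).

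**Figure D5:**
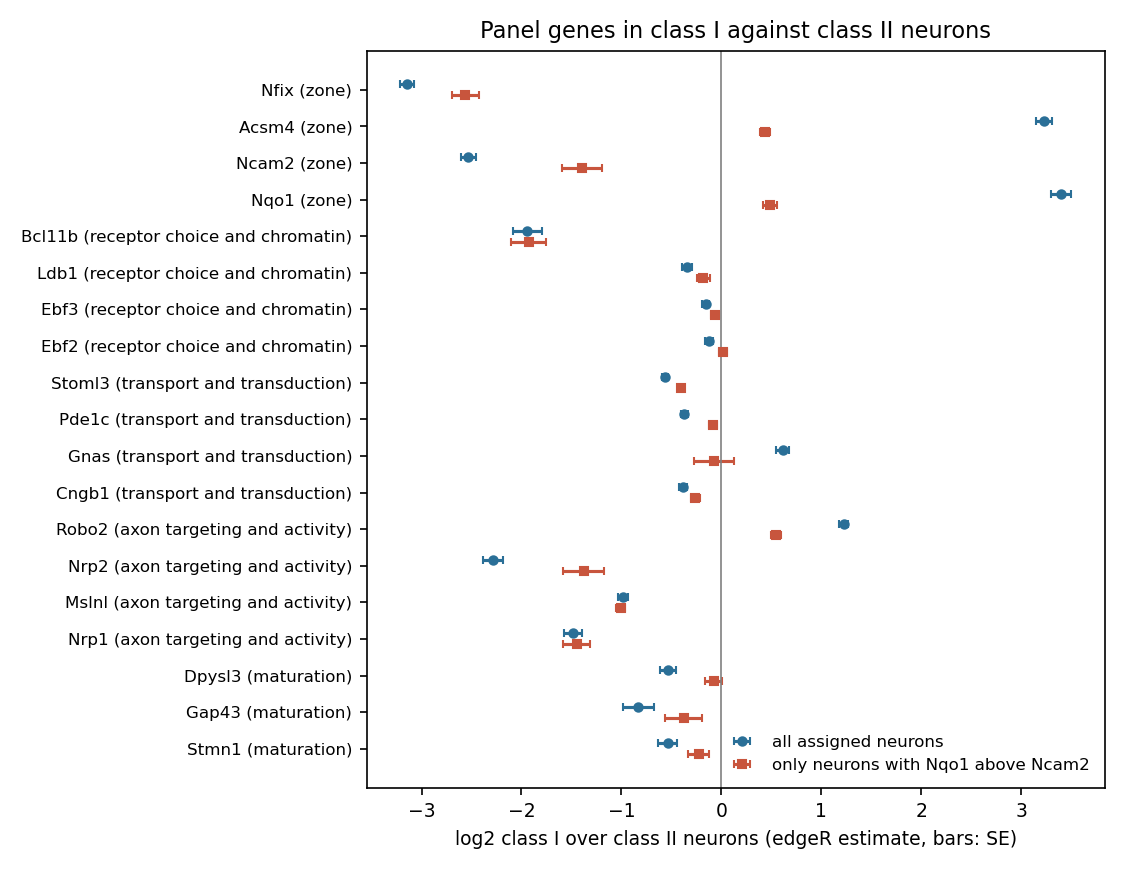
The log2 ratio of class I to class II neurons (x axis, bars: SE) for the up to 4 called genes with the lowest p of each list, over all assigned neurons (circles) and within neurons with Nqo1 above Ncam2 outside the sustentacular gate (squares). Bcl11b, Mslnl and Nrp1 have like values in both sets (-1.94 and -1.93 for Bcl11b), and the values of the maturation genes lie nearer 0 in the second.

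RefSeq windows of 300 bases around the annotated start (GRCm38.p6) matched 98 of the 114 genes, but 75 of the 98 start at the ATG itself, so most are not promoters. Homeodomain factors such as Lhx2 bind TAATTA or TAATGA, and Ebf factors bind TCCC, 2 bases of any kind and GGGA. On either strand, TAATTA or TAATGA stood in 36.7% of the class I windows, 41.7% of the class II windows and 13.9% of all 32851 windows. These sets are unlike, since 602 of 833 class II windows but only 1915 of all windows start at the ATG. Among windows that do not, the shares were 39.1% of 23 in class I, 47.2% of 231 in class II and 13.2% of 30936 in all. The Ebf motif stood in 0% of the class I, 0.600% of the class II and 0.904% of all windows. Only 3 class I windows begin within 30 bases of the GENCODE start and upstream of the ATG, those of Olfr544, Olfr566 and Olfr630. The 250 bases before the start are shown for Olfr544, the gene with the highest UMIs per neuron among frequent genes (GRCm38.p6 chr7:102488308-102488557, minus strand), and for Olfr630, with 7 neurons (chr7:103757351-103757600, minus strand), 5′ to 3′ with matches of TAATGA on the opposite strand, read here as TCATTA, in capitals:

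Olfr544: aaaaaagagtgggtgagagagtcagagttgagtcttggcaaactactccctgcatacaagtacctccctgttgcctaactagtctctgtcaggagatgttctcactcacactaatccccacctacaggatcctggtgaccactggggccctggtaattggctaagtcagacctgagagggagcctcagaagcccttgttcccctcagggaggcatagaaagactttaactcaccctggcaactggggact

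Olfr630: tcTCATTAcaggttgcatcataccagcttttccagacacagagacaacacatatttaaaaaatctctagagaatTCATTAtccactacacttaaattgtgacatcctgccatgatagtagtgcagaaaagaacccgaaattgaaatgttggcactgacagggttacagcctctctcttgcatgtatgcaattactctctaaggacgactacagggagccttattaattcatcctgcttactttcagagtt

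Olfr544 has none of the motifs in its 250 bases, and Olfr630 has 2 matches of TAATGA. Olfr566, with 13 neurons and its window not printed, also has none. A match describes letters and not a bound site, and most class I starts could not be examined this way.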

How the data were processed

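UMI counts per gene and barcode were deposited by the authors as 1 matrix per library. Per the file headers they were made with Cell Ranger 6.0.2, whereas the submitters' processing notes name Cell Ranger 5.0.1, with build mm10; the annotation used for counting was not given in the sources used here. Barcodes with at least 500 genes and at most 10% mitochondrial UMIs were kept, and doublets were removed at a rate that grew with the number of barcodes, by comparison with simulated doublets. The members and all gene lists were chosen with earlier results of these data known. Positions and coding sequences came from GENCODE M21 (GRCm38) and start-site windows from RefSeq.

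Summed counts were tested with edgeR 4.0.16 (quasi-likelihood, Benjamini-Hochberg adjustment over all features tested), with DESeq2 1.42.0 as an alternative. Neurons per receptor used the total of assigned neurons as offset and at least 20 neurons. Maturation and class fits used TMM scaling and the library as a block, since both groups come from the same library. Single values were tested by exact permutation or sign flips. Counts were simulated with a fixed spread between libraries and with 87 of 287 receptors changed. On these the sex fit recovered 35.7% of 2-fold and 88.9% of 4-fold changes. The spread was not estimated from the real libraries, so these shares may overstate what the fit finds in the real counts. Named were the 12 receptors with the most neurons, the 6 highest and 6 lowest in UMIs per neuron and in Nqo1 among those with at least 20 neurons, the 6 with the most immature barcodes, up to 10 with the lowest p per direction of a test, and up to 4 called genes per list. Other named genes were chosen after their values were seen. Alternatives changed the assignment thresholds, doublet removal, scaling, filters, gates and libraries; leaving out the sustentacular gate and restricting to neurons with Nqo1 above Ncam2 were chosen after seeing the data. A gene of the lists is not reported here.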

Additional observations from a re-analysis of the deposited data

Results flagged for a closer look

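The class I share of assigned neurons in male 2, 9.05%, lay far from the other 3 libraries, as judged by its gap to the nearest library over the range of the 4. By the same measure, Olfr672 stood out with 15 neurons in male 2, Olfr653 with 12 neurons in male 2, and Olfr571 with 5 neurons in female 2. Chance marks about 1 in 20 groups of this size. The high values of Olfr672 and Olfr653 are in the library whose class I share is high.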

How the results depend on the processing

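The male minus female difference in class I share was -0.280 to 3.18 percentage points over the fits without 1 library, and it turned negative without male 2. The log2 ratio of UMIs per neuron was -0.0048 when the leading receptor needed 50% of receptor UMIs, where its p was 1, 0.0708 to 0.177 without 1 library, and 0.221 among receptors with at least 20 neurons. For neurons per receptor between sexes, 1 receptor was called with at least 10 Omp UMIs, 1 without the sustentacular gate, and 0 to 1 without 1 library (1 without male 1); no class I gene was among them. With the replicate block, where the labels share only a number between the sexes, 0 receptors were called and the lowest adjusted p was 0.0655. With no filter on low counts, 73 class I genes were higher and 1 lower in mature neurons, with more genes tested. Without 1 library 45 to 53 were higher, and 38 were higher in the fit without the library as a block. Of the listed genes, 40 were called in the class fit without the library as a block. Within neurons with Nqo1 above Ncam2, 25 were called, a count that includes both of these genes (23 without them) and comes from fewer neurons. In those neurons the log2 ratio of Ebf2 was 0.0151 and that of Gnas -0.0735, on the other side of 0. Of the named genes' other values over all alternatives, 416 kept direction and side of the threshold and 16 lost the call. These genes were picked by their low p in the main fits, and the alternatives reuse most of the same counts. They include the receptors that passed the filter through their mature level. The number kept is therefore no support for the results. With a median of 9 neurons per gene over 4 libraries, counting error limits what can be seen for single receptors.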
